A study of Homo sapiens with 4 samples.

Results

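The BCL2 family was described here in NB4 cells by 10 genes, BCL2, BCL2L1, MCL1, BCL2A1, BAX, BAK1, BID, BCL2L11, BBC3 and BMF, taken by symbol from the 60662 genes of the deposited table. NB4 is a human acute promyelocytic leukemia cell line that carries the PML-RARα fusion. In the Vector group (2 libraries) the cells were transduced with an empty vector, and in the JMJD3 group (2 libraries) with a vector that expresses JMJD3 (KDM6B), a demethylase of histone H3 lysine 27. For leukemia cells in general, the methods describe lentiviral vectors with a fluorescent marker and sorting of GFP+ cells, and no cloning step after transduction. By the labels, Vector replicate 1 was run on lane 20, and Vector replicate 2 and both JMJD3 libraries on lane 17. The deposited counts summed to 39078443 and 40768225 in the Vector libraries and to 35176388 and 34704909 in the JMJD3 libraries. Whether the replicates of a group were separate cultures is not stated, so the p-values measure only the spread between these samples.

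The BCL2 family sets whether a cell's mitochondria release the proteins that start the caspase cascade. Antiapoptotic members hold the effectors BAX and BAK1 in check, and BH3-only members, which sense stress, bind the antiapoptotic members or activate the effectors. Myeloid cells are known to lean on MCL1 and BCL2 for survival, and BCL2 is the target of drugs used in acute myeloid leukemia.

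KDM6B itself stood at 15.8 and 13.7 CPM (counts scaled to TMM-adjusted library sizes) in the Vector libraries and at 37.9 and 44.1 CPM in the JMJD3 libraries. Both JMJD3 libraries lay above both Vector libraries, and the log2 fold change was 1.48 ± 0.13 (SE; edgeR's quasi-likelihood test, adjusted p = 0.00114). Within lane 17, that is, without Vector replicate 1, it was 1.54. Counts per gene do not separate RNA of the vector from that of the cells' own KDM6B. Of the promyelocyte markers, MPO was the most abundant, at 4889 and 5055 FPKM (fragments per kilobase, scaled to library size) in the Vector libraries and 3278 and 3324 FPKM in the JMJD3 libraries. ELANE, a granule protease of promyelocytes, was near absent, at 0.351 and 0.183 CPM in the Vector libraries, and KIT did not exceed 0.216 CPM in any library. Summed over the 7 promyelocyte markers, the level was 16577 and 17373 CPM in the Vector libraries and 10474 and 10436 CPM in the JMJD3 libraries. MPO, PRTN3, AZU1 and CTSG fell, CD33 rose, and ELANE and KIT were too low to test. These markers moved with the group, and their part in the changes below was not tested.

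HBB and HBA1 of erythroid cells, MS4A1 of B cells, PF4 of platelets and FCGR3A of monocytes were at 0 in every library, where a count of 0 allows up to 3 fragments, or between 0.0671 and 0.0925 CPM. The 3 T cell markers summed to at most 0.419 CPM, with CD3D the most abundant, and the 2 monocyte markers to at most 0.351 CPM. The 3 platelet markers summed to 0.621 and 0.707 CPM in the Vector libraries and 1.78 and 1.67 CPM in the JMJD3 libraries, with ITGA2B the most abundant and called higher. CD79A, the most abundant B cell marker, was called higher, at 7.64 and 8.62 CPM in the Vector libraries and 15.3 and 13.7 CPM in the JMJD3 libraries, while the defining marker MS4A1 was at 0. These lists were short, and outside them other genes of such cells were present and called higher. They include the T cell genes TRAC (mean of 23.4 CPM, log2 fold change 1.99), TRDC (23.0 CPM, 2.45) and CD2 (7.49 CPM, 1.38), and HDC (177 CPM, 3.46) and PRG2 (486 CPM, 2.01) of basophils and eosinophils. The part of these genes in the results below was not tested.

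All 10 members passed the filter on low counts. At an adjusted p below 0.05, taken over the 15246 genes that were tested, 2 members were higher in the JMJD3 libraries (BCL2 and BCL2A1) and 3 were lower (BID, BBC3 and BMF). Over all genes tested, 21.6% were higher and 19.1% lower, or 40.7% in either direction, so the number of members called was near the background. Of the members called, BCL2 and BCL2A1 are antiapoptotic, and BID, BBC3 and BMF are BH3-only. BCL2, BID, BBC3 and BMF were called with each of the other scalings too, whereas BCL2A1 was not with DESeq2 size factors. Within lane 17, 1 member was higher and 5 were lower (BAX and BAK1 joined them, and BCL2A1 was not called), where 53.4% of genes were called. Without JMJD3 replicate 2, 1 was higher and 1 lower, where 19.0% were called. The median log2 fold change was 0.29 over the antiapoptotic members, -0.22 over the 2 effectors and -0.54 over the BH3-only members, beside 0.04 over all genes tested. The CPM values of the 2 groups were fully separate in 8 of the 10 members, and in 74.4% of all genes tested, so that share too was near the background. In bulk RNA, fewer cells that express a gene and less RNA per cell cannot be told apart.

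**Figure D1:**
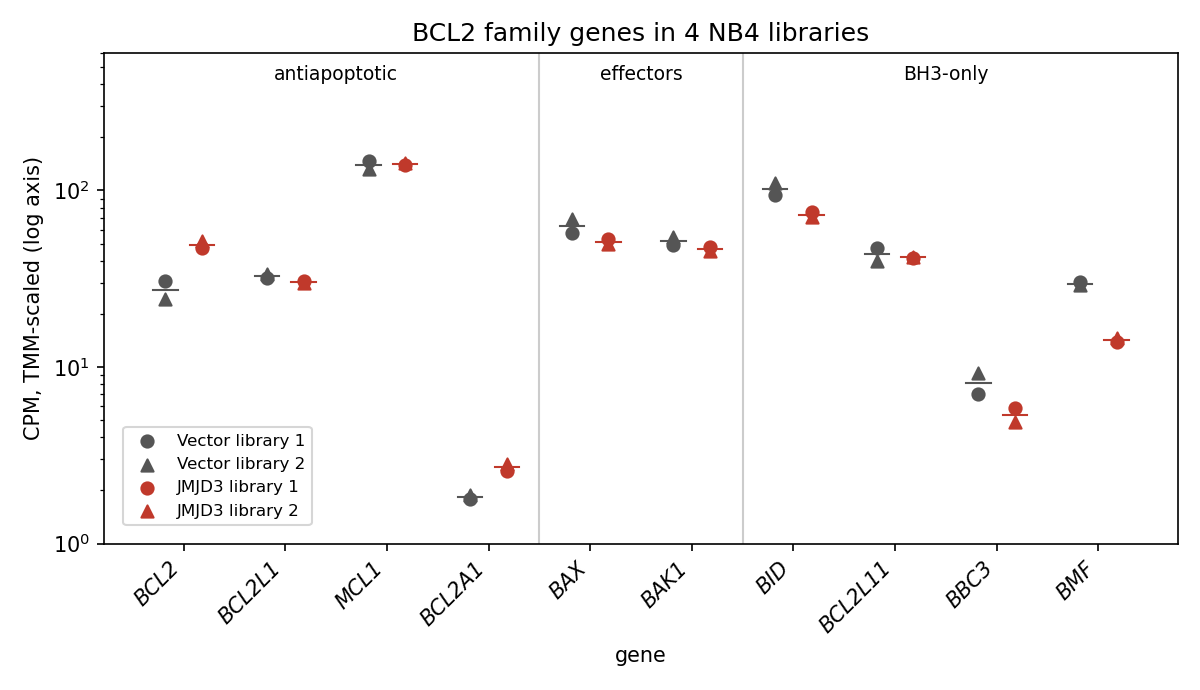
CPM on TMM-scaled library sizes (log axis) of the 10 BCL2 family genes in each library, with circles for replicate 1, triangles for replicate 2 and short lines for the group means. BCL2 and BCL2A1 lay higher and BID, BBC3 and BMF lower in both JMJD3 libraries, and MCL1 lay between 133 and 146 CPM in all 4.

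Of the antiapoptotic members, BCL2, whose product sits in the outer mitochondrial membrane, was at 30.6 CPM in Vector replicate 1 and 24.1 CPM in Vector replicate 2, and at 47.3 and 51.5 CPM in JMJD3 replicates 1 and 2. The lowest JMJD3 library thus lay above the highest Vector library, although the 2 Vector libraries also differed from each other. BCL2 rose 1.81-fold, a log2 fold change of 0.85 ± 0.14 (SE; edgeR's quasi-likelihood test, adjusted p = 0.00494). Within lane 17 it was 0.99. BCL2 (ENSG00000171791) lies on chr18:60790579-60987361 of GRCh37, on the minus strand.

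BCL2A1, a short-lived antiapoptotic protein of myeloid cells, was at 1.78 and 1.89 CPM in the Vector libraries and at 2.59 and 2.84 CPM in the JMJD3 libraries. The groups did not overlap, but these levels rest on only 66.3 and 72.2 estimated counts in the Vector libraries and 96.3 and 105 in the JMJD3 libraries. The log2 fold change of BCL2A1 was 0.56 ± 0.18 (SE; edgeR's quasi-likelihood test, adjusted p = 0.0412), and within lane 17 it was 0.48 and no longer called. The call was lost when any 1 of the 4 libraries was left out, at 0.48 without Vector replicate 1, 0.60 without Vector replicate 2, 0.63 without JMJD3 replicate 1 and 0.50 without JMJD3 replicate 2. Over 14 alternatives its adjusted p in edgeR, DESeq2 or limma ranged from 0.0275 to 0.291 and passed in 4. BCL2A1 (ENSG00000140379) lies on chr15:80253234-80263538 of GRCh37, on the minus strand.

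The remaining antiapoptotic members were not called. MCL1, a protein with rapid turnover, was at 146 and 133 CPM in the Vector libraries and 140 and 144 CPM in the JMJD3 libraries, so that the groups overlapped. The log2 fold change of MCL1 was 0.02 with a 95% interval from -0.18 to 0.23, and its sign turned with DESeq2 size factors and in the DESeq2 Wald test (-0.00877 in each) and without Vector replicate 2 (-0.0498). Within lane 17 it was 0.0527. BCL2L1, which encodes BCL-XL and its short proapoptotic form, was at 31.8 and 33.7 CPM against 30.7 and 29.9 CPM. Its 2 groups did not overlap, and the 95% interval of its log2 fold change ran from -0.35 to 0.12, with -0.20 within lane 17. The counts are per gene, so isoforms of BCL2L1, MCL1 and BCL2L11 with opposite or unequal activity were not separated.

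BAX and BAK1 form the pores of the outer mitochondrial membrane. BAX was at 57.5 and 68.7 CPM in the Vector libraries and at 52.9 and 49.7 CPM in the JMJD3 libraries. The JMJD3 libraries lay below both Vector libraries, but the gap was smaller than that between the Vector libraries. With a log2 fold change of -0.30 and a 95% interval from -0.57 to -0.03, BAX missed the threshold (edgeR's quasi-likelihood test, adjusted p = 0.0762). Within lane 17, without Vector replicate 1, it was -0.46, which passed, as did the DESeq2 Wald test (-0.33). Without Vector replicate 2 it was only -0.17, and in limma on log2(FPKM + 1) -0.20, and neither passed (adjusted p = 0.108 and 0.249). A p that misses the threshold does not show that a gene stayed the same. BAK1 was at 49.0 and 54.4 CPM against 47.6 and 45.7 CPM, a log2 fold change of -0.15 with a 95% interval from -0.39 to 0.09, and it was not called (adjusted p = 0.262). Without Vector replicate 1 it passed, at -0.27, whereas without Vector replicate 2 it was -0.0783 (adjusted p = 0.390), and it passed in none of the other 13 alternatives.

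Of the BH3-only members, BMF had the largest change in size of all 10 members. BMF, which is held by the dynein light chain DYNLL2 until it is released, was at 30.2 and 29.1 CPM in the Vector libraries and at 13.8 and 14.6 CPM in the JMJD3 libraries. The 2 libraries of each group lay close together and the groups far apart. BMF fell 2.09-fold, a log2 fold change of -1.06 ± 0.10 (SE; edgeR's quasi-likelihood test, adjusted p = 0.00137), and within lane 17 it was -1.08. It was the only member called with a change of at least 2-fold. Of all genes tested, 2.82% were called with a fall of that size and 7.55% with a rise. BMF (ENSG00000104081) lies on chr15:40380091-40401093 of GRCh37, on the minus strand.

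BBC3 encodes PUMA, a target of p53 that binds all antiapoptotic members. It was at 7.04 and 9.22 CPM in the Vector libraries and at 5.86 and 4.86 CPM in the JMJD3 libraries. Both groups were spread, and the distance from the lowest Vector to the highest JMJD3 library was smaller than that between the Vector libraries. The log2 fold change of BBC3 was -0.60 ± 0.18 (SE; edgeR's quasi-likelihood test, adjusted p = 0.0358), and within lane 17 it was -0.83. The call was lost without Vector replicate 2 (-0.40) and without JMJD3 replicate 2 (-0.47), and also with limma on FPKM and without a filter on low counts. BBC3 (ENSG00000105327) lies on chr19:47724079-47736023 of GRCh37, on the minus strand.

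BID, which caspase-8 cleaves to link death receptors to mitochondria, was at 94.5 and 110 CPM in the Vector libraries and at 75.1 and 70.8 CPM in the JMJD3 libraries. Both JMJD3 libraries lay below both Vector libraries. BID fell 1.40-fold, a log2 fold change of -0.49 ± 0.10 (SE; edgeR's quasi-likelihood test, adjusted p = 0.0116), and within lane 17 it was -0.63. The call was lost without JMJD3 replicate 1 (-0.53) and without JMJD3 replicate 2 (-0.44). BID (ENSG00000015475) lies on chr22:18216904-18257536 of GRCh37, on the minus strand.

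BCL2L11, which encodes BIM, was at 47.1 and 40.0 CPM in the Vector libraries and at 41.4 and 42.1 CPM in the JMJD3 libraries. The JMJD3 libraries lay between the Vector libraries, and the 95% interval of the log2 fold change ran from -0.33 to 0.21, with a sign that turned within lane 17 (0.0202 without Vector replicate 1). Its exons share 10.8% of their bases with MIR4435-2HG on the other strand, which averaged 13.5 CPM and had a log2 fold change of 0.15. Those of MCL1 share 5.27% with ADAMTSL4-AS1 on the same strand, at 0.456 CPM. Exons of BCL2L1 share 41.3% of their bases with ABALON on the other strand, at 0.907 CPM. For BMF the share with BMF-AS1 on the other strand, which was not tested, was 8.46%. Shares with genes on the other strand were 4.11% for BAK1, 2.51% for BBC3 and 0.691% for MCL1. Since no source states that counting used strand, reads of such pairs cannot be told apart.

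**Figure D2:**
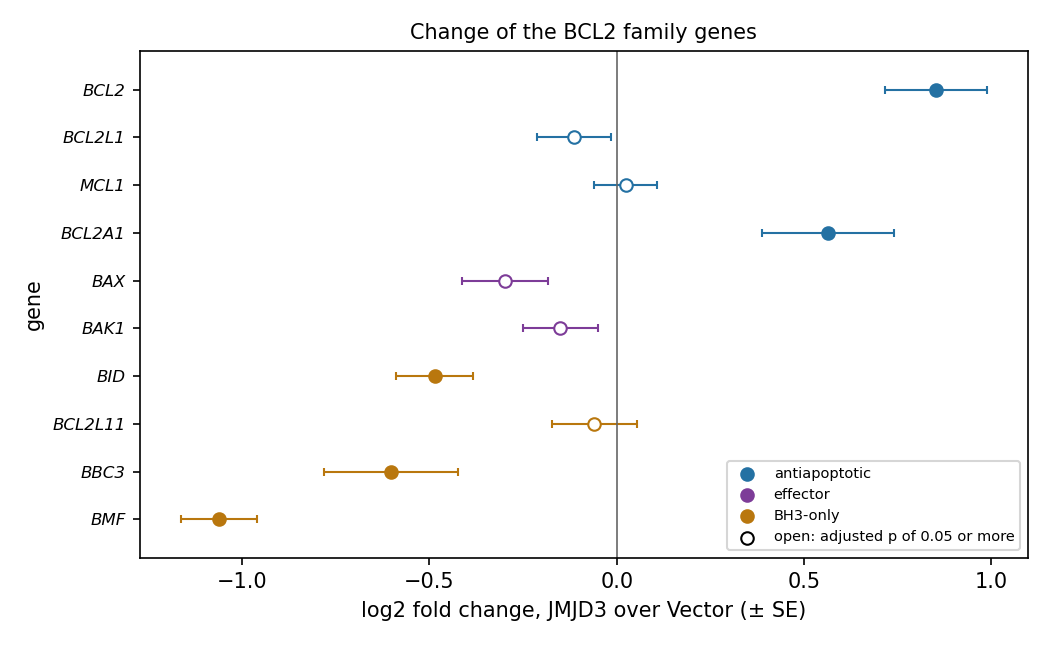
Log2 fold change of each of the 10 members, JMJD3 over Vector, with bars for the standard error, coloured by class, and open points where the adjusted p was 0.05 or more. The filled points run from -1.06 for BMF to 0.85 for BCL2.

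Promoters are shown for the 5 called members. RefSeq windows (GRCh38.p14) of 250 bases before a transcription start were found for 9 of the 10 members, 15 windows in all, and MCL1 was without one. Matches in capitals are to C/EBP (TTGCNNAA), E-box (CACGTG), GC box (GGGCGG) or AP-1 (TGANTCA) letters, or to the NF-κB consensus by name, on either strand. These motifs were chosen after the results and sequences were seen. No matches overlapped in the windows printed. The first listed window is given for BMF, which has 2, and BID, which has 5.
BCL2, chr18:63319770-63320019, minus strand: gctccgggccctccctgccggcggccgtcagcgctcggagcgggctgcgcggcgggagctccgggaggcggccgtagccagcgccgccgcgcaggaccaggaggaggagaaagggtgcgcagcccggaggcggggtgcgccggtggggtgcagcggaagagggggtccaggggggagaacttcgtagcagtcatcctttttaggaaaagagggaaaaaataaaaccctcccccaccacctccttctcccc
BCL2A1, chr15:79971197-79971446, minus strand: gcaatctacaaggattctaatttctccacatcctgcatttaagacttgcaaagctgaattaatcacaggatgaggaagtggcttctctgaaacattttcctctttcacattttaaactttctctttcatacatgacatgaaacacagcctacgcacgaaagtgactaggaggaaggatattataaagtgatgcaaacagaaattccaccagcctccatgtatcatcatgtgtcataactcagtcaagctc
BMF, chr15:40108880-40109129, minus strand: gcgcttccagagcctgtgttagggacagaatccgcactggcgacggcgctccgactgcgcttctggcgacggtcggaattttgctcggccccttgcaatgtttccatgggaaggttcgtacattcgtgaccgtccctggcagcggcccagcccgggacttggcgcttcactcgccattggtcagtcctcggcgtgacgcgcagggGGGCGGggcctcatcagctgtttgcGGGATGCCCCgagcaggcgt
BBC3, chr19:47232668-47232917, minus strand: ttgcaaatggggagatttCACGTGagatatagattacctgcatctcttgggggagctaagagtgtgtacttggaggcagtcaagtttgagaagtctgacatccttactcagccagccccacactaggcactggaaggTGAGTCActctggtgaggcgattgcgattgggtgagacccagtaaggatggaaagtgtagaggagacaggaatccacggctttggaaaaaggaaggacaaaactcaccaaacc
BID, chr22:17774470-17774719, minus strand: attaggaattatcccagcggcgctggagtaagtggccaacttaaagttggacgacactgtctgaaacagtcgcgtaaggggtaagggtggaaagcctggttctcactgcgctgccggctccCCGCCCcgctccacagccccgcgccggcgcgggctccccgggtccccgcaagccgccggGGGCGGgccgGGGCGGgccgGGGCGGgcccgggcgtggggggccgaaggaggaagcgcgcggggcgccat

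The windows of BCL2A1 and BCL2 held no match to any of the 5 motifs, and their share of G and C was 38.8%, the lowest of the 15, and 70.0%. The BMF window held 1 GC box and 1 NF-κB match, that of BBC3 1 E-box and 1 AP-1 match, and that of BID 4 GC boxes. The C/EBP letters were found in no window of the 9 members, and occur in 9.05% of all 35116 windows of this length. Of the 15 windows of the members, 8 held GC boxes (42.6% of all windows did), 4 E-boxes (6.34%), 1 the NF-κB consensus (9.96%) and 1 AP-1 letters (6.57%). Another NF-κB pattern, searched before the consensus, matched 4 of the 15 (22.6% of all windows), in 3 members. Some of the 5 BID windows overlap, so these counts are not independent. BAX, which was not called, had 4 E-boxes in its 1 window. A match describes the letters only.

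Levels of the members were compared on the FPKM scale, which accounts for length. In the Vector libraries the mean was highest for BID (177 ± 16.1 FPKM, SD), followed by BAX (94.0 ± 13.3), MCL1 (39.8 ± 2.32), BAK1 (27.6 ± 2.57) and BCL2L1 (18.7 ± 1.23). Then came BCL2L11 (10.6 ± 0.735 FPKM, SD), BMF (8.74 ± 0.402), BBC3 (6.67 ± 1.49), BCL2 (4.81 ± 1.14) and BCL2A1 (2.59 ± 0.0860). Of these neighbours only BBC3 and BCL2 overlapped in the 2 Vector libraries. In the JMJD3 libraries BCL2 stood at 8.72 ± 0.895 FPKM, above BBC3 (4.36 ± 0.551) and BMF (4.36 ± 0.00133), which overlapped, and the order of the 6 highest genes was as in the Vector libraries.

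This order depended on the length taken for each gene. If the FPKM of Vector replicate 1 was scaled to the sum of its deposited counts, the FPKM of BID implied a length of 0.542 kb, below the shortest of its 7 coding transcripts in GENCODE 44, whose median was 1.88 kb. That of BCL2 implied 5.16 kb, within the 0.572 to 7.46 kb of its 5 coding transcripts. The length behind the deposited FPKM may be defined otherwise than as full transcript length, which was not tested. Per kilobase of the longest coding transcript, BAX stood at 42.4 and 50.6 CPM per kb in the Vector libraries, and MCL1 at 37.1 and 33.6 CPM per kb. BID lay between them, above MCL1 in both libraries and with a range that overlapped that of BAX. The implied length of BAX was 0.646 and 0.643 kb in the Vector libraries and 0.591 and 0.598 kb in the JMJD3 libraries, and its log2 ratio of mean FPKM was -0.21, beside -0.30 from counts.

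Summed by class, the antiapoptotic members held 67.5 and 64.4 FPKM in the Vector libraries and 69.7 and 74.3 FPKM in the JMJD3 libraries. The effectors held 110 and 133 FPKM against 109 and 103 FPKM, and the BH3-only members 191 and 215 FPKM against 152 and 142 FPKM. Of the sum over all 10 members, the antiapoptotic share was 18.3% and 15.6% in the Vector libraries and 21.1% and 23.3% in the JMJD3 libraries, and the BH3-only share 51.8% and 52.1% against 45.9% and 44.5%. The effector share was 29.9% and 32.3% against 33.0% and 32.2%, so its groups overlapped while those of the other 2 classes did not. BID made up between 86.5% and 87.8% of the BH3-only sum, and MCL1 between 56.5% and 61.4% of the antiapoptotic sum. The share of BCL2 in the antiapoptotic sum was 8.33% and 6.21% in the Vector libraries and 11.6% and 12.6% in the JMJD3 libraries. Per kilobase of the longest transcript the antiapoptotic share was higher, at 30.4% and 26.4% against 34.3% and 36.0%, with the same order of the groups. On that scale the BH3-only share was lower, at 32.7% and 33.5% against 27.8% and 27.1%, and the effectors were the largest class in every library, between 36.8% and 40.0%. Which class was largest thus depended on the length taken. These sums cover only the 10 members, leave out other genes of each class, are of RNA and were given no test.

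**Figure D3:**
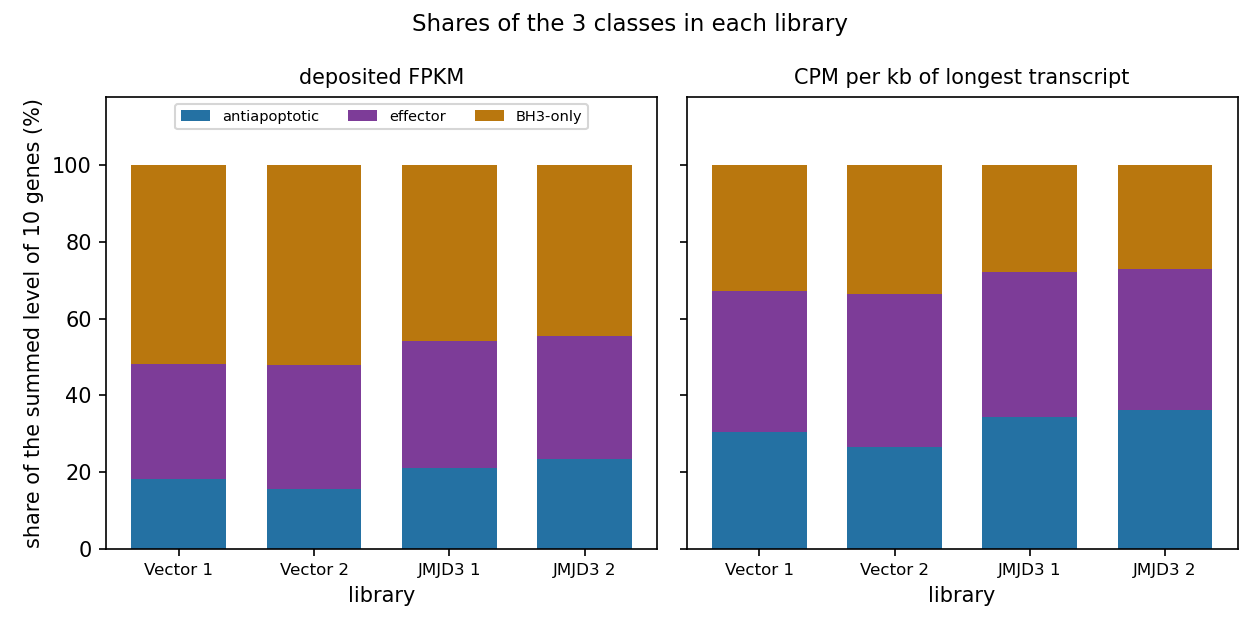
Share (%) of the summed level of the 10 genes held by each class in each library, from deposited FPKM (left) and from CPM per kilobase of the longest transcript (right). In both panels the antiapoptotic share was higher and the BH3-only share lower in the JMJD3 libraries than in the Vector libraries.

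The other genes of the pathway were read from 3 lists with 40 genes, of which 36 were tested. There 6 genes were higher and 7 lower in the JMJD3 libraries, beside 21.6% and 19.1% of all genes tested, and the median log2 fold change was 0.02. The 6 that rose were called in all 14 alternatives of scaling, test, filter, block and libraries. Without JMJD3 replicate 2, ENDOG (-0.54), VDAC3 (-0.41), CYCS (-0.32) and DYNLL1 (-0.385) lost their calls, and CYCS (-0.42) also did without JMJD3 replicate 1. DYNLL1 also lost its call with no filter on low counts (adjusted p = 0.0509). Within lane 17, without Vector replicate 1, the 13 genes called over all libraries kept their direction. Their log2 fold changes there ran from -0.75 for ENDOG to 1.71 for APAF1.

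Among 13 other genes of the family, 9 were tested, 3 were higher and none was lower, with a median log2 fold change of 0.25. The fall count was 0 in edgeR, in the DESeq2 Wald test and in limma on FPKM, and 0 genes had a fall at an unadjusted p under 0.05 in any of these, while 1 did within lane 17. BNIP3L, a receptor for the removal of mitochondria, was at 15.9 and 14.3 CPM in the Vector libraries and 29.9 and 32.9 CPM in the JMJD3 libraries, and BNIP3, its relative, at 76.8 and 78.8 against 132 and 125 CPM. Neither gene's groups overlapped, and the log2 fold changes were 1.06 ± 0.11 for BNIP3L (SE; edgeR's quasi-likelihood test, adjusted p = 0.00182) and 0.72 ± 0.08 for BNIP3 (adjusted p = 0.00205). BCL2L10, an antiapoptotic relative of BCL2, was at 8.34 and 10.2 CPM in the Vector libraries and 15.1 and 14.7 CPM in the JMJD3 libraries, a log2 fold change of 0.69 ± 0.13 (SE; adjusted p = 0.00863 in the same test). PMAIP1, which encodes the BH3-only protein NOXA, was at 13.6 and 13.0 CPM against 16.4 and 15.3 CPM and was not called (adjusted p = 0.102). The BH3-only genes BAD and BIK were not called either, with log2 fold changes of 0.01 and 0.16. BCL2L14, BCL2L15, BOK and HRK had too few counts to be tested.

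Downstream of the mitochondria, 2 of 18 genes were higher and 6 lower, with a median log2 fold change of -0.12. APAF1, the scaffold of the apoptosome, was at 12.8 and 7.97 CPM in the Vector libraries and 26.1 and 27.6 CPM in the JMJD3 libraries. It rose by the most of the 36 genes, with no overlap of the groups and a log2 fold change of 1.37 ± 0.21 (SE; edgeR's quasi-likelihood test, adjusted p = 0.00414), although the Vector libraries differed from each other. DFFA, the inhibitor of the caspase-activated nuclease, was at 59.5 and 58.4 CPM in the Vector libraries and 101 and 104 CPM in the JMJD3 libraries. Its groups lay apart, and it rose with a log2 fold change of 0.80 ± 0.08 (SE; adjusted p = 0.00171 in the same test), but only 0.42 from log2(FPKM + 1).

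The 6 genes that fell were ENDOG, VDAC2, AIFM1, VDAC1, VDAC3 and CYCS. DIABLO (-0.22) and HTRA2 (-0.16), whose products also reside in mitochondria, were not called. ENDOG, a mitochondrial nuclease, fell from 28.4 and 33.7 CPM in the Vector libraries to 21.4 and 19.8 CPM in the JMJD3 libraries, a log2 fold change of -0.59 ± 0.12 (SE; edgeR's quasi-likelihood test, adjusted p = 0.0106). The channel gene VDAC2, whose product binds BAK1, fell from 312 and 353 CPM to 229 and 216 CPM, and VDAC1 and VDAC3 had log2 fold changes of -0.48 and -0.45. AIFM1, an oxidoreductase of the intermembrane space, fell from 158 and 165 CPM to 112 and 108 CPM. CYCS, which encodes cytochrome c, the ligand of APAF1, had a log2 fold change of -0.37. In none of the 6 genes that fell did the groups overlap. The groups were also separate in 16 of all 18 genes of this list, called or not. Over all genes tested that share was 74.4%. The caspase genes CASP9 and CASP6 were not called, and CASP9 was at 10.1 and 9.75 CPM in the Vector libraries and 9.72 and 9.83 CPM in the JMJD3 libraries.

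Of 9 regulators of the members, 1 was higher and 1 lower, with a median log2 fold change of -0.12. With a crossed replicate block, 2 were higher and 2 lower, where 53.2% of all genes tested were called. Both numbers were also larger within lane 17, as were those over all genes. DDIT3, which encodes the stress factor CHOP, was at 9.36 and 9.72 CPM in the Vector libraries and 18.6 and 16.6 CPM in the JMJD3 libraries, a log2 fold change of 0.88 ± 0.12 (SE; edgeR's quasi-likelihood test, adjusted p = 0.00272). DYNLL1, the dynein light chain known to hold BCL2L11, fell from 173 and 198 CPM to 142 and 129 CPM, a log2 fold change of -0.45 ± 0.10 (SE; adjusted p = 0.0132 in the same test). HUWE1, USP9X, FBXW7, MARCH5, DYNLL2, FOXO3 and TMBIM6 were not called in that fit, with log2 fold changes between -0.29 and 0.29. The number of regulators called lower depended on the setting, with 2 in the DESeq2 Wald test and in both limma fits, 3 without Vector replicate 2, and 0 with no filter or without JMJD3 replicate 2. On the FPKM scale HUWE1 was at 39.2 and 42.1 FPKM in the Vector libraries and 23.1 and 23.3 FPKM in the JMJD3 libraries, a wider gap than from counts (-0.29).

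**Figure D4:**
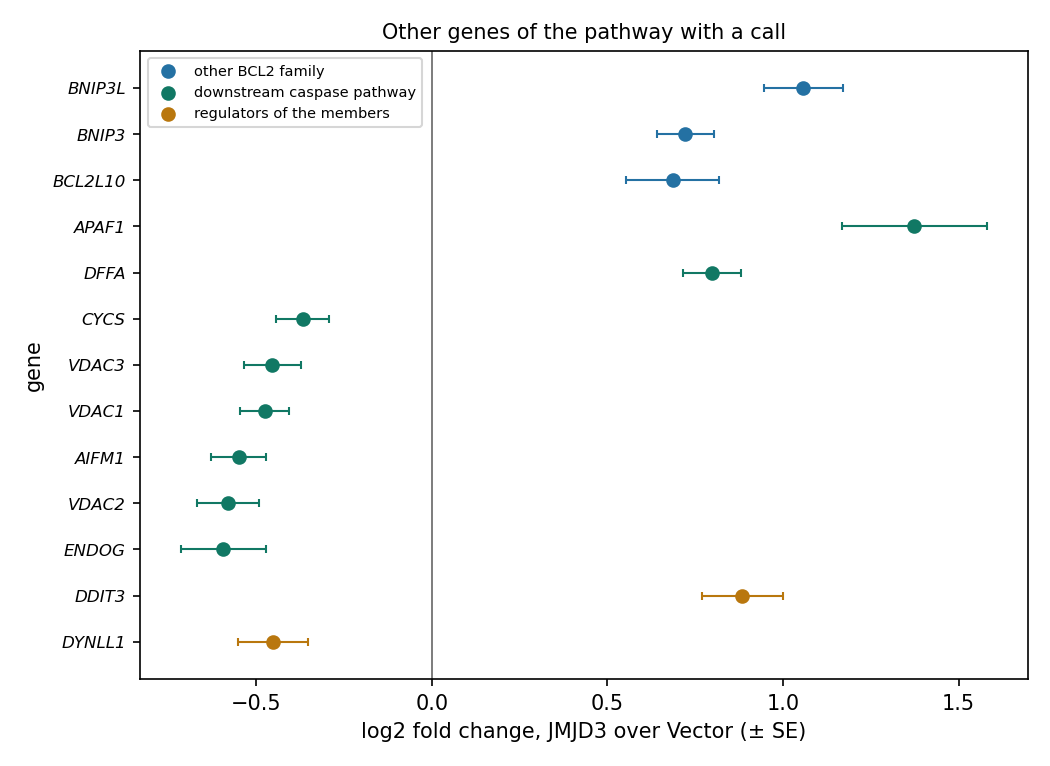
Log2 fold change of the 13 called genes of the 3 lists, JMJD3 over Vector, with bars for the standard error, coloured by list. The values run from -0.59 for ENDOG to 1.37 for APAF1.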

How the data were processed

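RNA from 2 Vector and 2 JMJD3 libraries of NB4 cells was sequenced after poly(A) selection. In the table the authors deposited, each gene has estimated counts and FPKM values for all 4 libraries. Its columns of group means and of the authors' own test (log fold change, p-value, FDR) were not used. For alignment and counting the methods name STAR on hg19 and HTSeq-count, and the submitters' processing notes name TopHat2 2.0.4, RSEM and GRCh38, and the table holds no coordinates, so positions from GENCODE 44 (GRCh37) were looked up by gene identifier.

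In each library, between 94.0% and 94.3% of the nonzero deposited counts were whole multiples (within 0.1) of 1 value: 1.14 and 1.05 in the Vector libraries and 0.993 and 0.829 in the JMJD3 libraries. The counts thus look as if multiplied by a library factor, which no source states, and without it the libraries held 34190336 and 38947099 (Vector) and 35431663 and 41876235 (JMJD3) counts. The ratio of deposited counts to deposited FPKM had a median between 1.00 and 1.01 times that in Vector replicate 1 in every library. Limits from counts cover counting error only.

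Estimated counts were rounded. Genes passing edgeR's filterByExpr were scaled by TMM and tested with glmQLFit and glmQLFTest (edgeR 4.0.16, R 4.3.3) without covariates, with Benjamini-Hochberg adjustment over all 15246. The SE was the log2 fold change over the square root of F. Scripts were tested on simulated data. Alternatives were DESeq2 1.42.0 size factors or its Wald test, upper quartile scaling, limma 3.58.1 on log2(FPKM + 1) or log2(FPKM + 0.1), no filter, at least 10 counts in every library, a replicate block, each library left out, a 2-fold change and an adjusted p under 0.01. Counts without the library factors, and a crossed block, came later, once the values had been seen. The 14 alternatives counted for single genes leave out the 2-fold change and the adjusted p under 0.01. The members and lists were chosen with earlier results of these data known. Named genes were KDM6B, the members and, in each list, up to 3 called genes with the largest rise and 3 with the largest fall. The values of VDAC1, VDAC3, CYCS and genes without a call were added to these. Values of some genes of the lists are not reported here.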

Additional observations from a re-analysis of the deposited data

How the results depend on the processing

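KDM6B, BCL2 and BMF kept their direction and call, at an adjusted p below 0.05, under all 14 alternatives of scaling, test, filter, block and libraries. The log2 fold change lay between 0.69 and 0.99 for BCL2 and between -1.10 and -0.86 for BMF. With DESeq2 size factors, 1 member was higher, and BCL2A1 (0.53) was not called. With the DESeq2 Wald test, 1 member was higher, BCL2A1 (0.53) was not called and BAX (-0.33) was. On log2(FPKM + 1) and log2(FPKM + 0.1), 2046 and 2032 genes were higher, 1 member was higher in each, and BCL2A1 (0.44 and 0.56) and BBC3 (-0.51 and -0.59) were not called. Without a filter, with 27095 genes tested, 1893 genes were higher and 1776 lower, 1 member was higher, and BCL2A1 (0.56) and BBC3 (-0.60) were not called. MCL1, never called, changed sign with DESeq2 size factors and in the Wald test (-0.00877 each), as did CASP9 with upper quartile scaling (0.0151). The cause of these differences between settings was not tested.

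With a 2-fold change, 1151 genes were higher and 430 lower, 0 members higher and 1 lower, and 2 other pathway genes higher and 0 lower. For an adjusted p below 0.01, 1468 genes were higher and 1300 lower, 1 member higher and 1 lower, and 4 other pathway genes lower. Without the library factors, 3304 genes were higher and 2915 lower, and the members called were the same 5.

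With 1 library left out, the lone library was assumed to vary like the others. The genes higher ranged from 1890 to 4248 and those lower from 1110 to 4212, members lower from 1 to 5 with 1 higher in each, and other pathway genes from 6 to 11 higher and from 3 to 10 lower. The log2 fold change ranged from 0.48 to 0.63 for BCL2A1, -0.46 to -0.17 for BAX, -0.27 to -0.0783 for BAK1, -0.63 to -0.38 for BID and -0.83 to -0.40 for BBC3. It changed sign without Vector replicate 2 for MCL1 (-0.0498, in a range up to 0.0527) and without Vector replicate 1 for BCL2L11 (0.0202, in a range from -0.18).

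What the replicate numbers stand for is not stated. Across the genes tested, the deviations of replicate 1 had a correlation of -0.25 between the groups. With a replicate block, 3267 genes were higher and 2415 lower, 1 member was higher and BCL2A1 (0.56) was not called. In the crossed block, 4335 genes were higher and 3772 lower, BAX (-0.29) was called, and 10 other pathway genes were higher. BCL2A1 had the fewest counts of the 10 members, between 66.3 and 105 per library, and how depth bears on its call was not tested.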

Other observations

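BCL2L15, a member of the wider family that was too low to test, was listed at 1.32 FPKM in JMJD3 replicate 2 from 7.46 estimated counts, but at 0.197 FPKM in Vector replicate 1 from 9.14 counts and at 0.104 FPKM in Vector replicate 2 from 14.7 counts. Its highest FPKM thus stood in a library with fewer counts than either Vector library. HUWE1, a ubiquitin ligase for MCL1, was at 39.2 and 42.1 FPKM in the Vector libraries and at 23.1 and 23.3 FPKM in the JMJD3 libraries, whereas its CPM values were 231 and 190 against 160 and 185. The implied length differed by 1.09-fold between the highest and lowest library at the median of 8802 genes with a mean above 5 FPKM and over 100 counts in every library. The cause of such differences between counts and FPKM was not tested.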
